A study of Mus musculus with 32 samples.

Results

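The comparison described here is between mouse XEN cells labelled XRRb XiKO and XEN cells labelled XRRb XaKO, read out as X-linked expression on each X chromosome. It takes in 4 of the 32 RNA samples of the series, 2 per group, chosen by their sample labels. XEN cells are stem cells of the extraembryonic endoderm, and all lines are given as a cross of the strains 129S1/SvImj and JF1/Ms. Going by the label, the element called XRRb is knocked out on the inactive X (Xi) in the XiKO cells and on the active X (Xa) in the XaKO cells. The labels give no position for the element, no deletion breakpoints and no clone, and they do not spell out XRR. No wild-type column stands in the same table. The lines labelled XRRc XaKO and XRRc XiKO, also 2 samples each, fill the rest of the table and share no sample with the XRRb lines.

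In female mammals 1 of the 2 X chromosomes is silenced early in development. The noncoding RNA Xist is transcribed from the future inactive X, spreads along it and recruits silencing and chromatin-modifying factors. Some genes escape and stay expressed from Xi. In mouse extraembryonic lineages the paternal X is the inactive one by imprint. Hybrid cells make it possible to read each chromosome apart, because transcripts of the parental strains differ at many positions.

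The deposited values are FPKM (fragments scaled by transcript length and by the size of the library) on Xa and on Xi. The XRRb lines fill 4 of the 8 columns of their table, 1 for each group and allele. Each column is merged over the 2 samples of its group, so no SD, interval or p-value can be given, and the spread between samples is unknown. The number of reads behind a value is unknown too. Of 953 listed genes, 418 were above 0 in any column and 261 had a mean Xa plus Xi FPKM of 1 or more over the 4 groups of the table. These 261 genes were compared. Xpnpep2 (mean 1.0002 FPKM) and 2810403D21Rik (1.013 FPKM) lay just above the limit, and Tspyl2 (0.985 FPKM) lay a little below it. "Rose" and "fell" stand for a difference of 1 or more in log2(FPKM + 0.5), XiKO minus XaKO, a scale that understates the change of low genes. Unless a value is called a level or an Xi share, a signed value is this difference. In merged values from many cells, more cells expressing an Xi allele and more RNA per cell cannot be told apart.

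The allele labels were checked on Xist. Its Xi share, which is Xi FPKM as a percentage of Xa plus Xi FPKM, was 99.9% in XRRb_XaKO and in XRRb_XiKO, and it lay between 99.9% and 100% in the XRRc columns. XRRb itself is not a gene in the table, so its deletion could not be checked. The usual endoderm markers such as Gata4 and Sox17 are not X-linked, and the cell identity was not checked on them. Between 168 and 176 of the 261 genes were listed at 0 on Xi in each of the 4 columns, and Rps4x alone made up between 60.4% and 63.5% of the Xi FPKM.

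On Xi, 5 of 261 genes (1.92%) were higher in XRRb_XiKO by the size rule and 0 (0%) were lower. The 5 were Tceal8, a member of the transcription elongation factor A-like family, Morf4l2, a subunit of histone acetyltransferase complexes, the ribosomal protein gene Rpl36a, the purine salvage enzyme gene Hprt, and Gm5643, a transcribed pseudogene. A fall needs an Xi level of at least 0.5 FPKM in XaKO, which 40 genes had. On Xi 250 genes (95.8%) differed by less than 0.5, and 147 of these were listed at 0 in both columns. In the XRRc lines, compared in the same way, 2 genes (0.766%) were higher on Xi and 4 (1.53%) were lower.

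Tceal8 showed the largest of the 5 differences. Its Xi level was 5.46 FPKM in XRRb_XaKO, 38.2 FPKM in XRRb_XiKO, 0.0531 FPKM in XRRc_XaKO and 1.83 FPKM in XRRc_XiKO. XRRb_XiKO was the highest of the 4 columns, 6.995-fold above XRRb_XaKO (log2 change 2.70). The Xi share of Tceal8 went from 2.94% to 18.5%, while its Xa level was 180.5 and 167.9 FPKM (-0.10). In wild-type XEN cells (labelled WT, 3 samples merged), processed in a separate table, its Xi share was 2.91%, close to XRRb_XaKO, and shares do not depend on the scaling of a table. In XRRc_XaKO and XRRc_XiKO the share of Tceal8 was lower than in WT, at 0.0347% and 1.28%.

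Morf4l2 had 2.52 FPKM on Xi in XRRb_XaKO and 15.9 FPKM in XRRb_XiKO, a 6.30-fold difference (2.44). The XRRc columns held 12.9 FPKM in XaKO and 4.77 FPKM in XiKO, so the XRRc lines had the opposite order and XRRc_XaKO lay near XRRb_XiKO. Its Xi share was 0.565% and 4.08% in the XRRb lines. Rpl36a was at 0.0539 FPKM on Xi in XRRb_XaKO and 2.91 FPKM in XRRb_XiKO, with 0.242 FPKM in XRRc_XaKO and a listed 0 in XRRc_XiKO. XRRb_XiKO was again the highest column (2.62), but against 606 and 654 FPKM on Xa the Xi share reached 0.443%. Hprt was listed at 0 on Xi in 3 columns and at 0.702 FPKM in XRRb_XiKO, beside 224 and 212 FPKM on Xa, an Xi share of 0.330%. Gm5643 had 1.21 and 3.07 FPKM on Xi in the XRRb lines (1.06), and 0.998 FPKM and a listed 0 in XRRc_XaKO and XRRc_XiKO.

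Of these 5 genes, 3 have near-identical transcripts on other chromosomes, which leaves the origin of their allelic reads uncertain. Rpl36a has 7 such copies, Morf4l2 has 1, and Gm5643 has 4, Hnrnpa1 among them. Without the 22 tested genes that have such copies, 2 rises on Xi were left, Tceal8 and Hprt. On Xi, 4 of the 5 genes exceeded all 3 other columns by the size rule, and Morf4l2 did not. These 4 were the only ones of all 261 tested genes to do so in XRRb_XiKO. The 5 had been called against XRRb_XaKO, so that part of the comparison was met by choice. No gene was below the other 3 columns by that measure in XRRb_XiKO, and none stood above or below them in XRRb_XaKO. XRRc_XaKO stood above the others for 2 genes (Ccdc22 and Cetn2) and below for 1 (Tceal8), and XRRc_XiKO below for 1 (Gm5643).

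**Figure D1:**
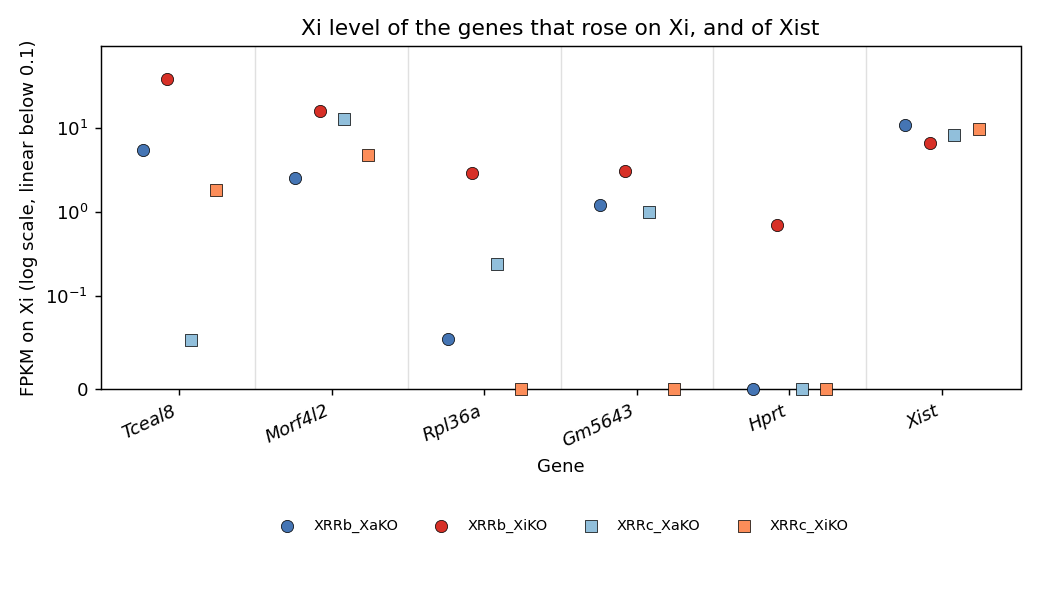
Xi level (FPKM, log scale, linear below 0.1) of the 5 genes that rose on Xi and of Xist, with 1 point for each merged column. XRRb_XiKO is the highest point for Tceal8 (38.2 FPKM), Morf4l2, Rpl36a, Gm5643 and Hprt, and the lowest for Xist (6.72 FPKM).

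Xist was the gene with the second largest decrease on Xi, without passing the size rule. Its Xi level was 10.9 FPKM in XRRb_XaKO and 6.72 FPKM in XRRb_XiKO, 1.63-fold lower (-0.66), against 8.35 and 9.74 FPKM in XRRc_XaKO and XRRc_XiKO. XRRb_XiKO held the lowest of the 4 levels. Tsix, antisense to Xist, was at 20.0 and 17.0 FPKM on Xi (-0.23), but the libraries keep no strand, so reads of Xist and Tsix cannot be told apart. The ubiquitin ligase gene Rlim, an activator of Xist, was listed at 0 on Xi in XRRb_XaKO and at 0.0291 FPKM in XRRb_XiKO, with 18.6 and 15.6 FPKM on Xa (-0.24). Of the 14 genes listed for the X inactivation centre 5 were tested, and 0 rose or fell on either allele, which is near the shares over all tested genes (1.92% and 0% on Xi, 0.766% and 2.3% on Xa). Chic1 and Nap1l2, the other 2 besides Xist, Tsix and Rlim, were listed at 0 on Xi in both lines.

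The promoters of the risen genes are shown beside those of 2 neighbours of Tceal8 that did not rise, Wbp5, with a high Xi level in both lines, and Bex1, with an Xi level near 0. Each sequence holds the 250 bases before the start of transcription, 5′ to 3′ on the gene's own strand, from RefSeq on GRCm38.p6, another build than the authors' mm9 and another strain than the parents of these cells. Tceal8, Morf4l2 and Bex1 lie on the minus strand and the other 3 on the plus strand. Morf4l2 has 4 starts in the RefSeq table and the one listed first is given, and Wbp5 is listed there as Tceal9. Gm5643 is named only. Capitals mark the GC box (GGGCGG or CCGCCC), the CCAAT box (CCAAT or ATTGG) and the TATA box (TATAAA or TTTATA), searched on both strands.
Tceal8: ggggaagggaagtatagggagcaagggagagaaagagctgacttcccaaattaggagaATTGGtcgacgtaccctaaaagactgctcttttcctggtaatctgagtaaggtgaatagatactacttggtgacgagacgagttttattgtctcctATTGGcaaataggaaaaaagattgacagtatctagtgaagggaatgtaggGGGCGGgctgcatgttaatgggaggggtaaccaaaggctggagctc
Morf4l2: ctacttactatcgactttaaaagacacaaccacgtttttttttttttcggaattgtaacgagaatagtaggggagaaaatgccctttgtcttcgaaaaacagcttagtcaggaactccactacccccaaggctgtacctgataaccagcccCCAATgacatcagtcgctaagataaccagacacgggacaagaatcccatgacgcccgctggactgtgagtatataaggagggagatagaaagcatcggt
Rpl36a: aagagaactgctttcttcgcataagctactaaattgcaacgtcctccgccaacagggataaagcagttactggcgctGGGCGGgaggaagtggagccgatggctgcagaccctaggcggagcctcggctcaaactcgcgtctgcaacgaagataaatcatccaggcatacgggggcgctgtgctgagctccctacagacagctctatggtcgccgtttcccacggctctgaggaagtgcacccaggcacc
Hprt: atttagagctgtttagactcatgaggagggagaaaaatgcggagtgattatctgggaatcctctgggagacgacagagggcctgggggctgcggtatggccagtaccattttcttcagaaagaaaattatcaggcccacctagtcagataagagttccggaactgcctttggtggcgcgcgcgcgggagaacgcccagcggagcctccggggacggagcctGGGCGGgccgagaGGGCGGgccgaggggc
Wbp5: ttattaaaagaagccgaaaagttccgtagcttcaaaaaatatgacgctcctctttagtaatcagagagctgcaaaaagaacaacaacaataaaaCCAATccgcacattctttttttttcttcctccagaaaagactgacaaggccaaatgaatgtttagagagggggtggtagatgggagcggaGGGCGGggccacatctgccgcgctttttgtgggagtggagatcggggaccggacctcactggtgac
Bex1: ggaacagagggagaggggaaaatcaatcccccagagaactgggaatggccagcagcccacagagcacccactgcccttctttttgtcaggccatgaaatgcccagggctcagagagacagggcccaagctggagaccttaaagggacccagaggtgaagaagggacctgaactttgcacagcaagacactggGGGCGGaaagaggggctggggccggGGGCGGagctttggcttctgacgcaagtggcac
The Tceal8 sequence holds 1 GC box, 2 CCAAT boxes and 5 CpG dinucleotides. Morf4l2 holds 1 CCAAT box and 10 CpG, Rpl36a 1 GC box and 16 CpG, and Hprt 2 GC boxes and 17 CpG. Wbp5 holds 1 GC box, 1 CCAAT box and 10 CpG, and Bex1 has 2 GC boxes and 4 CpG. The exact letters TATAAA or TTTATA are in none of the 6 windows, and looser forms of the TATA box were not searched. Among 231 tested X-linked genes with a promoter in the RefSeq table, 59.3% had a GC box, 48.5% a CCAAT box and 8.66% a TATA box, with a median of 13 CpG, and among 27025 promoters of all chromosomes the shares were 32.9%, 34.5% and 12.97% with a median of 6. No motif was common to the 4 risen genes shown.

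Tceal8 and Morf4l2 lie close together on the X among genes of the Bex and Tceal family, small proteins many of which act in signalling or transcription. Of 12 listed family members 5 were tested, and 1 (Tceal8) rose on Xi, against 1.92% of all tested genes. Wbp5, next but one to Tceal8 in gene order, was highly expressed on Xi in all 4 columns, at 192 FPKM in XRRb_XaKO, 185 FPKM in XRRb_XiKO, and 161 and 153 FPKM in XRRc_XaKO and XRRc_XiKO. Its XRRb lines differed by -0.05, with Xi shares of 30.1% and 31.8%. Bex1, between Tceal8 and Wbp5, had 593 and 442 FPKM on Xa but 0.216 FPKM and a listed 0 on Xi. Ngfrap1, between Wbp5 and Morf4l2, had 683 and 595 FPKM on Xa, and 0.337 FPKM and a listed 0 on Xi. Bex2, on the other side of Tceal8, had 0.242 and 0.0982 FPKM on Xi (-0.31). The Xi levels of adjacent genes thus differed widely within each line, and the 2 genes that rose were flanked by genes whose Xi level was low in both lines. On Xa all 5 family members were lower in XRRb_XiKO, with differences of -0.10 (Tceal8) to -0.42 (Bex1) and 0 past the size rule, beside 184 of all 261 genes that were lower on Xa.

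**Figure D2:**
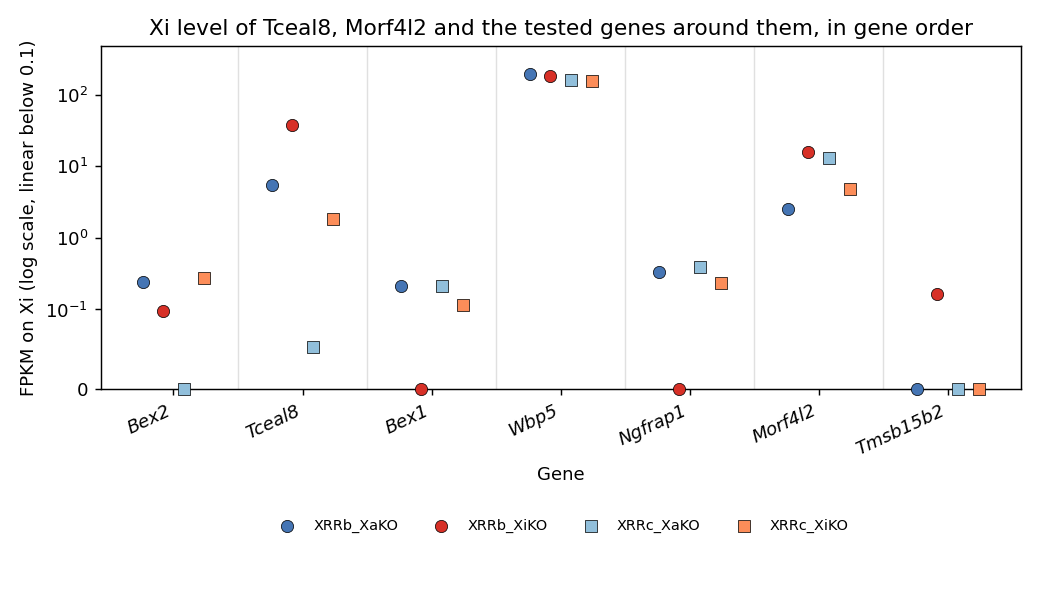
Xi level (FPKM, log scale, linear below 0.1) of 7 tested genes in their order along the X, with 1 point for each merged column. Wbp5 is the highest gene in every column, Bex1 and Ngfrap1 lie below 1 FPKM in every column, and Tceal8 and Morf4l2 are highest in XRRb_XiKO.

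The neighbours of all 5 risen genes were counted in the same way. Taking the 3 tested genes on each side of each of the 5, 27 different neighbours remained after the risen genes themselves were set aside. Of these, 16 were listed at 0 on Xi in both XRRb lines and 25 were below 1 FPKM in both. The exceptions were Wbp5 and the centromere protein gene Cenpi, at 9.62 and 10.4 FPKM on Xi. By the size rule 0 of the 27 rose or fell, near the 1.92% and 0% of all tested genes, and Wbp5 and Cenpi were the only neighbours with the 0.5 FPKM in XaKO that a fall needs. The differences farthest from 0 in each direction were between a value and a listed 0, for Ngfrap1 and for Tmsb15b2 (0.163 FPKM in XRRb_XiKO). Next to Rpl36a, the mitochondrial import gene Timm8a1 went from 0.173 FPKM on Xi to a listed 0, and the lysosomal enzyme gene Gla was listed at 0 in both lines. Next to Hprt, the chromatin gene Phf6 had 0.0195 FPKM and a listed 0, and the trophoblast gene Plac1 was listed at 0 in both.

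By gene order along the X, 4 of the 5 rises on Xi lay distal of Xist, among 90 tested genes there. Proximal to Firre, a noncoding locus with an architectural role, 0 of 72 genes rose. Hprt was the 1 rise among 58 genes between Firre and 4933407K13Rik, which covers the Dxz4 repeat, and 0 of 39 rose from there to Xist. On Xa, 4 of the 6 falls lay distal of Xist. Over all 261 tested genes 1.92% rose on Xi and 2.3% fell on Xa, and a difference between segments was not tested. At these shares, 0 or 1 call in the smaller segments sets none of them apart. The order comes from another genome build than the authors', and neighbouring genes are not independent of each other.

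**Figure D3:**
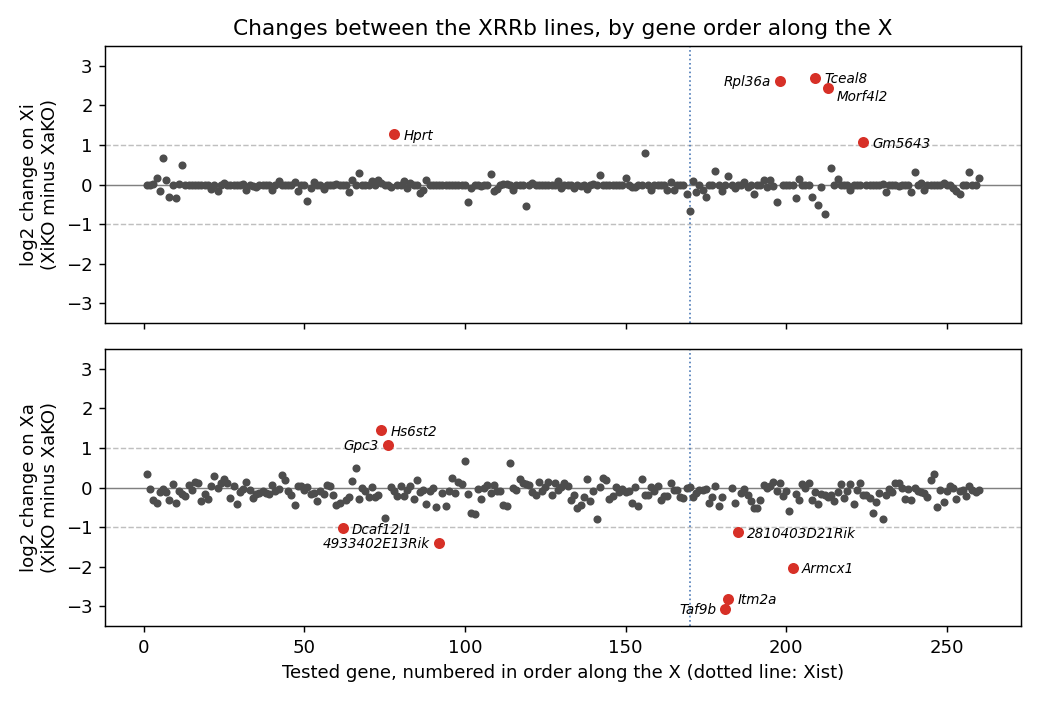
log2 change, XRRb_XiKO minus XRRb_XaKO, of 260 tested genes numbered in order along the X, on Xi (upper plot) and Xa (lower plot). Dashed lines mark a change of 1 in either direction and red points the genes beyond it, with 5 genes up in the upper plot, and 2 up and 6 down in the lower plot.

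At an Xi level of at least 1 FPKM in each line stood 33 genes. Their Xi differences ran from -0.66 (Xist) to 2.70 (Tceal8) with a median of -0.09, and 14 were higher and 19 lower. Besides Tceal8, Morf4l2, Gm5643, Xist and Tsix, which are described above and were set aside with their values known, these were 28 genes, so their narrower range follows in part from that choice. The 28 differed on Xi by between -0.45 and 0.29, with a median of -0.09, and 11 were higher and 17 lower. Over all 261 genes the Xi median was 0.00, since 147 of them were listed at 0 on Xi in both lines, so it is no measure to set beside the 28. For the 28 genes the median Xa difference was -0.11, and the median Xi share was 36.4% in XRRb_XaKO and 37.8% in XRRb_XiKO. In XRRc_XaKO and XRRc_XiKO the same genes had median Xi shares of 33.3% and 36.2%. The genes were chosen on their Xi levels in the XRRb lines alone, so lower XRRc shares may follow in part from that choice. The lower end was Nsdhl, an enzyme of cholesterol synthesis, at 2.502 and 1.695 FPKM, followed by Upf3b, a factor of nonsense-mediated decay, at 5.92 and 4.30 FPKM (-0.42). The upper end was Utp14a, which acts in ribosomal RNA processing, at 7.39 and 9.15 FPKM.

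Known escape genes were among them. Of 15 listed escape genes 9 were tested, Xist included, and 7 of these stood at 1 FPKM or more on Xi in both lines. Of the 9 genes 0 rose or fell on either allele, with a median of -0.13 on Xi. Over all tested genes 1.92% rose and 0% fell on Xi, and 0.766% rose and 2.3% fell on Xa, so 0 of 9 is near the background. The RNA helicase gene Ddx3x had 59.7 and 56.8 FPKM on Xi (-0.07), and Eif2s3x, a subunit of a translation initiation factor, had 33.8 and 34.0 FPKM (0.01). The histone demethylase gene Kdm5c stood at 1.26 and 1.09 FPKM (-0.14), while Kdm6a, another histone demethylase that escapes in many mouse tissues, was listed at 0 on Xi in all 4 columns, with 2.82 and 2.52 FPKM on Xa in the XRRb lines. Pbdc1 had 14.96 and 11.91 FPKM on Xi (-0.32), above the 7.76 and 5.36 FPKM of the XRRc lines. The noncoding 5530601H04Rik had 0.686 and 0.58 FPKM, and 1810030O07Rik 4.01 and 3.58 FPKM. In each of these genes the XRRb columns lay closer to each other than the size rule asks for.

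Xi shares also differed in few genes, and these were mostly other genes than the rises on Xi. A share of at least 10% was reached by 35 of 261 genes (13.4%) in XRRb_XaKO, by 37 (14.2%) in XRRb_XiKO and by 34 in both. Nsdhl passed 10% in XaKO alone (12.6% against 9.84%), and Tceal8, Gm5643 and Itm2a in XiKO alone. The share was higher in XRRb_XiKO by 10 points or more for 3 genes (1.15%) and lower by that much for 0 (0%). Besides Tceal8 these were Clcn5, an endosomal chloride transporter gene, from 46.6% to 57.5%, and Itm2a, from 0% to 11.3%. Clcn5 combined a slightly higher Xi level (2.82 and 3.21 FPKM) with a lower Xa level (3.23 and 2.37 FPKM). Its share was 50.9% in XRRc_XaKO, 50.7% in XRRc_XiKO and 51.0% in WT, between the values of the XRRb lines. The Itm2a share rests on very low levels, 0.0757 FPKM on Xi and 0.592 FPKM on Xa. Next came Gm5643 (9.36 points higher) and Utp14a (9.32 points), and the largest decrease was that of Upf3b (-6.30 points). Differences of 10 points or more were also present between the XRRc lines. There the share was higher in XRRc_XiKO for Tsix (26.3 points), Armcx5 (16.5), Gripap1 (14.1) and Kdm5c (10.6), and lower for Ccdc22 (-21.9). Summed over the tested genes without Xist, Tsix and Rps4x, which has copies elsewhere, the Xi share was 4.35% in XRRb_XaKO and 4.86% in XRRb_XiKO, and 4.09% and 4.11% in XRRc_XaKO and XRRc_XiKO. The sum takes in Tceal8 (5.46 and 38.2 FPKM on Xi in the XRRb lines) and Morf4l2 (2.52 and 15.9 FPKM), which also has a copy elsewhere. It was not computed without these genes, so it does not show a higher share across many genes.

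**Figure D4:**
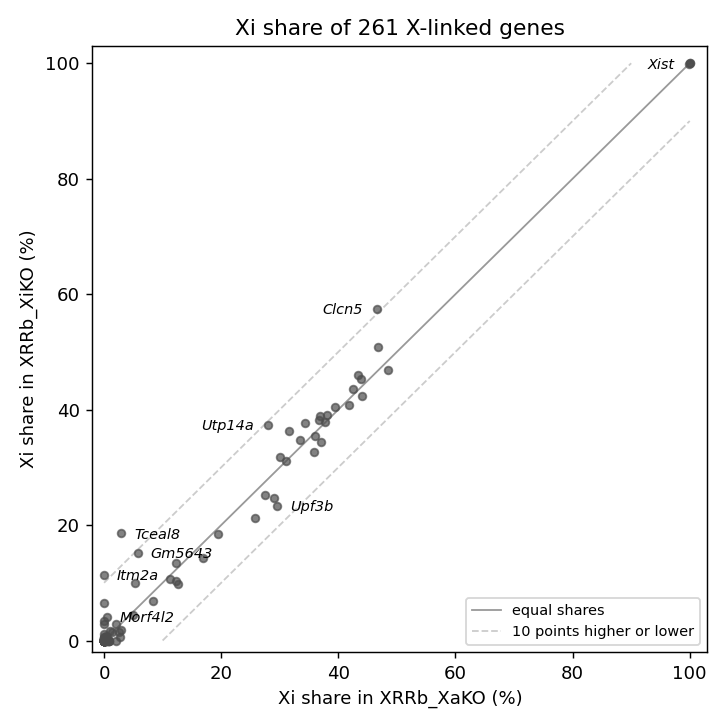
Xi share (%) of 261 tested genes in XRRb_XiKO against XRRb_XaKO, with 1 point for each gene, the line of equal shares and dashed lines 10 points away from it. Tceal8, Clcn5 and Itm2a lie above the upper dashed line, and no gene lies below the lower one.

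Many low Xi values changed between a listed 0 and a value. In 21 genes the Xi level was listed at 0 in XRRb_XaKO alone, with at most 0.702 FPKM (Hprt) in XRRb_XiKO, and in 21 genes it was listed at 0 in XRRb_XiKO alone, with at most 0.337 FPKM (Ngfrap1) in XRRb_XaKO. The numbers were equal in the 2 directions. The next largest increases on Xi after the 5 rises were of this kind for Pdzd11, Plp2, Gripap1 and Tmsb15b2, with 0.367, 0.299, 0.201 and 0.163 FPKM in XRRb_XiKO and a listed 0 in XRRb_XaKO. Cox7b followed with 0.0284 and 0.171 FPKM (0.34).

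On Xa, 2 of 261 genes (0.766%) rose and 6 (2.3%) fell, and 241 (92.3%) differed by less than 0.5. The median Xa difference was -0.09, with 75 genes higher and 184 lower. In the XRRc lines 3 genes (1.15%) rose and 3 (1.15%) fell. None of the 6 falling genes had a mean Xa plus Xi level above 3.78 FPKM.

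The 2 rises belong to heparan sulfate biology. Hs6st2, a 6-O-sulfotransferase of heparan sulfate, had an Xa level of 2.31 FPKM in XRRb_XaKO and 7.17 FPKM in XRRb_XiKO, 3.10-fold higher (1.45). The XRRc lines had the same order, 3.54 FPKM in XaKO and 11.9 FPKM in XiKO (1.62). Gpc3, a membrane-anchored heparan sulfate proteoglycan, had 9.18 and 20.0 FPKM, 2.18-fold higher (1.08), but in the XRRc lines the order was the opposite, 30.4 FPKM in XaKO and 10.02 FPKM in XiKO (-1.55). Gpc4, a related proteoglycan that lies between the other two, had 5.95 and 3.30 FPKM (-0.76). Hs6st2 was near 0 on Xi (0.0178 FPKM in XRRb_XiKO and a listed 0 in XRRb_XaKO), and both glypicans were listed at 0 on Xi in all 4 columns.

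Taf9b, which encodes a variant subunit of the transcription factor TFIID, had the largest fall. Its Xa level was 3.73 FPKM in XRRb_XaKO, 0.00934 FPKM in XRRb_XiKO, 3.16 FPKM in XRRc_XaKO and 3.52 FPKM in XRRc_XiKO (-3.05 in the XRRb lines). It was the 1 gene on Xa for which XRRb_XiKO lay below all other columns by the size rule, and it was listed at 0 on Xi in every column. Itm2a, which encodes a membrane protein, had 7.14 FPKM in XRRb_XaKO and 0.592 FPKM in XRRb_XiKO, 12.1-fold lower (-2.81), against 0.206 and 2.37 FPKM in XRRc_XaKO and XRRc_XiKO. XRRb_XaKO was the column that stood above all others. Armcx1, which acts in mitochondrial transport, had 7.05 and 1.36 FPKM, 5.18-fold lower (-2.02), and 0.371 and 6.35 FPKM in the XRRc lines. For Itm2a and Armcx1 the low columns were XRRb_XiKO and XRRc_XaKO.

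The other 3 falls were smaller. 4933402E13Rik had 5.71 and 1.86 FPKM on Xa (-1.40), and 4.17 and 0.952 FPKM in the XRRc lines, the same order. 2810403D21Rik had 1.93 and 0.614 FPKM (-1.12), with 0.569 and 0.94 FPKM in the XRRc lines, so XRRb_XaKO was the high column. The other 3 columns were below 1 FPKM, so this gene passed the filter only through the column where it was high. Dcaf12l1 had 4.596 and 1.996 FPKM (-1.03), with 3.60 and 2.59 FPKM in the XRRc lines, and it no longer passed the size rule when the columns were put on an equal median Xa level (-0.91). Just short of the rule lay Amot, a regulator of Hippo signalling (-0.80), Klhl15 (-0.79) and Gpc4 on the lower side, and Cetn2 (0.68), Emd (0.62) and Zdhhc9 (0.50) on the higher side.

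**Figure D5:**
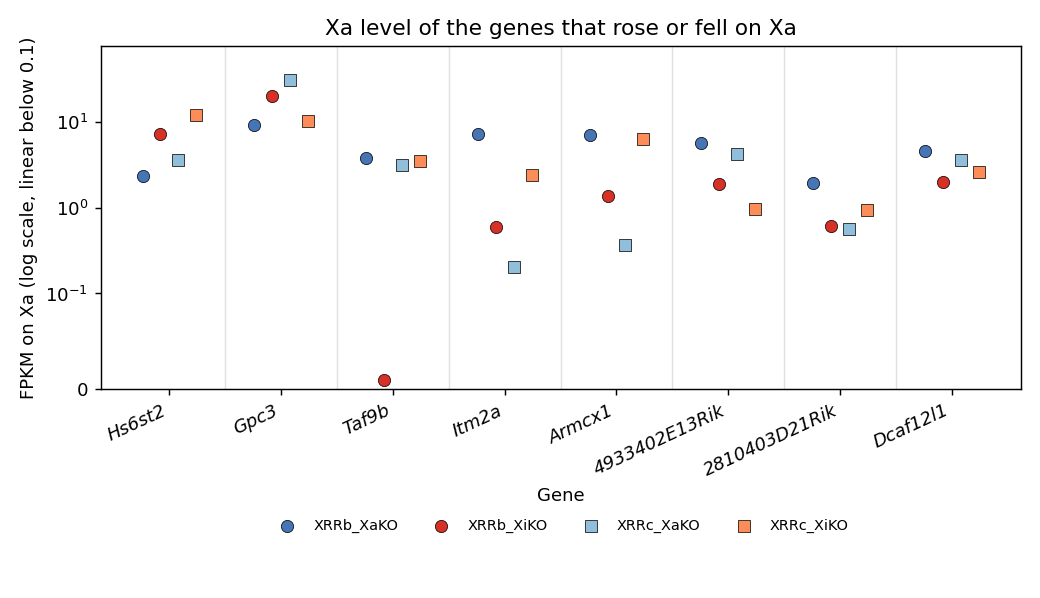
Xa level (FPKM, log scale, linear below 0.1) of the 8 genes that rose or fell on Xa, with 1 point for each merged column. Taf9b is low in XRRb_XiKO alone (0.00934 FPKM), and Itm2a and Armcx1 are low in XRRb_XiKO and XRRc_XaKO.

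Of the 13 calls in the XRRb lines on the 2 alleles, 3 had the same direction in the XRRc lines, Tceal8 on Xi and Hs6st2 and 4933402E13Rik on Xa, which is 23.1% of the XRRb and 25% of the 12 XRRc calls. In the opposite direction past the size rule were 5, Morf4l2 and Gm5643 on Xi and Gpc3, Itm2a and Armcx1 on Xa (38.5% and 41.7%). The other 5 were called in the XRRb lines alone. Over all 261 tested genes, 0.766% rose and 1.53% fell on Xi in the XRRc lines, and 1.15% rose and 1.15% fell on Xa. The difference between the pairs of lines could not be tested on merged columns.

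The other gene lists are given as counts beside the shares of all 261 tested genes, 1.92% higher and 0% lower on Xi and 0.766% higher and 2.3% lower on Xa. At these shares, few or no calls in lists of this size set no list apart. Of 42 listed chromatin and transcription genes 32 were tested, with Morf4l2 higher on Xi and Taf9b lower on Xa, and a median Xa difference of -0.16 against -0.09 over all genes. The cohesin subunit genes Smc1a (19.0 and 17.5 FPKM) and Stag2 (11.5 and 8.70 FPKM) were at -0.11 and -0.38 on Xa. Of 4 ribosomal protein genes 3 were tested, and besides Rpl36a they were Rps4x, at 938 and 975 FPKM on Xi (0.05), and Rpl10, at 0.617 and 0.515 FPKM on Xi. Of 10 purine and glycolysis genes 7 were tested, and besides Hprt none passed, with the glycolytic enzyme gene Pgk1 at 0.315 and 0.226 FPKM on Xi and 446 and 380 FPKM on Xa (-0.23). Of 12 respiration and import genes 9 were tested and 0 passed on either allele. Among them Ndufa1, a subunit of respiratory complex I, had 115 and 120 FPKM on Xi (0.06).

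Of 6 lysosome and proton pump genes all were tested, 5 were listed at 0 on Xi in both lines and 0 passed, with Lamp2 at 37.8 and 35.4 FPKM on Xa (-0.09). A list of 8 genes of the Armcx cluster takes in Arxes1 and Arxes2, which lie nearby and are not of the Armcx family. Of these 8 genes 5 were tested, and Armcx1 was the 1 to pass, on Xa. Armcx5 had 0.872 and 0.585 FPKM on Xi, and Armcx1, Armcx4, Arxes1 and Arxes2 were listed at 0 there in both lines. Of 18 genes with extraembryonic roles 7 were tested and 0 passed on either allele. The coregulator gene Cited1 had 15.8 and 14.3 FPKM on Xi (-0.14), above the 7.998 and 10.04 FPKM of the XRRc lines, and the tumour rejection antigen gene Trap1a had 104 and 110 FPKM on Xa and was listed at 0 on Xi.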

How the data were processed

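Smart-seq2 libraries were made from polyadenylated RNA of the XRRb XaKO and XRRb XiKO cells, per the labels' protocols, which describe no strand marking. Per the submitters' processing notes, the build was mm9 and the tools included StringTie 2.1.1, HISAT2 2.2.0 and Trim Galore 0.6.4. The assignment of reads to alleles and the merging of samples are "not given in the sources used here". FPKM values were deposited by the authors for Xa and Xi, merged per group, per the file headers. Low Xi values were searched for a common step: of 38 genes above 0 and below 1 FPKM on Xi in both lines, at most 2 shared a ratio within 1%, so depth stayed unknown.

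Differences of log2(FPKM + 0.5) were computed for 261 genes and read by the size rule. No model was fitted. The limma test considered for tables with a column per sample could not be run. The genes, lists and rules were chosen with earlier results of these data known. Named genes were all those past a rule, the next largest, neighbours in gene order and list members. The counts of columns that stand apart from the other 3, and of calls shared with the XRRc lines, were added after the values were seen. Gene order came from RefSeq (GRCm38.p6) and placed 260 genes, with no coordinates used. Near-identical copies were found with minimap2 2.31 in GENCODE M21 transcripts (95% identity over 50% of the length), for 260 genes with a transcript. Alternatives were pseudocounts of 0.1 and 1, no filter, a filter of 5 FPKM, 2 scalings, share rules of 5 and 20, and leaving out genes with copies. The degron tables were not used here. Python 3.11.15, pandas 2.3.3 and numpy 2.4.6 were used.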

Additional observations from a re-analysis of the deposited data

Results flagged for a closer look

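In 5 genes the XRRb and the XRRc lines differed past the size rule in opposite directions. On Xi, Morf4l2 was higher by 2.44 in XRRb_XiKO and lower in XRRc_XiKO (-1.35), and Gm5643 was at 1.06 and -1.58. On Xa, Armcx1 was at -2.02 in the XRRb and 2.98 in the XRRc lines, Itm2a at -2.81 and 2.02, and Gpc3 at 1.08 and -1.55. Over all 261 tested genes, 1.92% rose and 0% fell on Xi in the XRRb lines, and 0.766% rose and 2.3% fell on Xa. In the XRRc lines these shares were 0.766% and 1.53% on Xi, and 1.15% and 1.15% on Xa. With 1 merged value per group the differences in the 5 genes were not tested.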

How the results depend on the processing

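No paired analysis was possible because the table holds 1 merged column per group and allele, and for the same reason no replicate could be left out. With a pseudocount of 0.1, 12 genes were higher and 4 lower on Xi, since small values near a listed 0 then pass, and with 1 the number higher was 3 (Tceal8, Rpl36a and Morf4l2). Without genes that have near-identical copies 2 were higher on Xi. With no filter 4 genes were higher on Xa, and the Xi share was higher by 10 points for 6 genes and lower for 3. With a filter of 5 FPKM 0 were lower on Xa, since none of the 6 passes that filter. Share rules of 5 points gave 6 higher and 1 lower, and of 20 points 0 higher. The other 44 of 55 recomputed counts and Xist values stayed on the same side, or within 1.5 times, of the values reported. Among 82 recomputed values of named genes, 6 dropped below the size rule, those of Hprt, Gm5643 and 2810403D21Rik with a pseudocount of 1 and of Dcaf12l1 with that and with either scaling, and 0 changed direction. Putting the columns on an equal median Xa level changes the FPKM ratio of the XRRb lines by 0.14 on the log2 scale, and moves log2(FPKM + 0.5) by less for low genes. With the depth unknown, no error can be given for low Xi values.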

Other observations

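Gm6568 was listed at 0 on Xa and at 1.501, 1.386, 1.401 and 1.545 FPKM on Xi in XRRb_XaKO, XRRb_XiKO, XRRc_XaKO and XRRc_XiKO, an Xi share of 100% in every column and also in WT. Cetn2, a centrosome gene, was listed at 0 on Xi in both XRRb lines and in XRRc_XiKO, and at 4.08 FPKM in XRRc_XaKO. The separately processed table holds XEN cells of the same cross labelled WT (3 samples), XistpA (4), XRR KO (2, from 2 clones) and XRRa KO (3), each merged per group, and the labels do not describe these alleles further. There the Xi share of Tceal8 was 20.5% in XistpA, 29.5% in XRR_KO and 28.8% in XRRa_KO, against 18.5% in XRRb_XiKO and 2.91% in WT. For Morf4l2 it was 34.4%, 37.6% and 7.79% in those groups, against 4.08% in XRRb_XiKO and 1.45% in WT. For Rpl36a it was 0.0623%, 7.39% and 1.48%, against 0.443% in XRRb_XiKO. Hprt, at 0.330% in XRRb_XiKO, was at 0.0470% in XistpA, 0% in XRR_KO and 0.134% in XRRa_KO. Gm5643, at 15.2% in XRRb_XiKO, was at 1.82% in XistpA, 8.26% in XRR_KO, 0% in XRRa_KO and 3.03% in WT. In XRRc_XaKO and XRRc_XiKO the Xi share was 0.0347% and 1.28% for Tceal8, and 3.35% and 1.54% for Morf4l2. There it was 0.0342% and 0% for Rpl36a, 0% in both for Hprt, and 4.59% and 0% for Gm5643.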
